A study of Bos taurus with 36 samples.

Results

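The 7 genes described here mark parts of the nephron, the filtering and reabsorbing unit of the kidney, and were followed in fetal heart, gonad and liver RNA of cattle. They are NPHS1, PODXL and SYNPO, which are known from podocytes, and SLC12A1, CUBN, LRP2 and CDH16, which are known from the renal tubule. All 7 were found among the 35092 genes of the count table, by matching Entrez identifiers to bovine RefSeq symbols. The genes were chosen by their levels, that is selected on measured counts, in the gonad libraries against the heart and liver libraries, so those levels are given below as a description, without a test. Tests were made only between heart and liver, along fetal weight, between transfer groups, and on other nephron genes.

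In a nephron, blood is filtered through the glomerulus, where podocytes wrap the capillaries with foot processes joined by slit diaphragms. The filtrate then passes the proximal tubule, which takes back proteins, glucose and salts, the thick ascending limb, the distal convoluted tubule and the collecting duct. In the embryo, nephrons form first in the mesonephros, a transient kidney that lies beside the developing gonad, and then in the metanephros, which becomes the permanent kidney.

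The samples came from 10 male fetuses of cattle (Bos taurus) at 42 days of gestation, with blood of the dams. All pregnancies were made by transfer of a Day 7 embryo, either on Day 7 of the heifer's cycle (ET_D7, synchronous, 5 fetuses of 1.253 to 1.37 g) or on Day 9 (ET_D9, asynchronous, 5 fetuses of 1.396 to 1.69 g). Every ET_D9 fetus was heavier than every ET_D7 fetus, so weight and transfer group cannot be told apart between the groups, and no fetus conceived without transfer was analysed here. The fetuses are numbered here from 1, the lightest, to 10, the heaviest. There were 9 heart libraries (without fetus 7), 9 gonad libraries (without fetus 2), 8 liver libraries (without fetuses 6 and 7) and 10 maternal blood libraries, each from whole dissected tissue or whole blood of 1 animal.

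Total counts per library were 20930367 to 35857434 in heart, 22762065 to 39649051 in gonads and 18231089 to 34454772 in liver. Mitochondrially encoded genes held 17.1 to 57.3% of the total in heart, 3.31 to 7.23% in gonads and 16.3 to 36.8% in liver. Levels are given in CPM, counts divided by library sizes that were scaled with TMM, a method that centres most genes between libraries. The TMM factors were 1.55 to 1.64 in gonads, 0.513 to 1.04 in heart and 0.688 to 0.892 in liver. On plain library totals, gonad levels were therefore higher and the order of organs changed for the genes named where this occurs. Levels are compared between organs for 1 gene at a time and not between genes, since no gene lengths were used. In bulk tissue, fewer cells of a type and less RNA per cell cannot be told apart.

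The libraries labelled gonads, whose source is given as fetal testicle, were checked against 19 markers of Sertoli, Leydig and germ cells. KIT, a receptor of germ cells that other cells also carry, was above every heart and liver library in every gonad library. It was 1 of the 19 to be so, against 6.4% of all genes tested, so this count is near the background. GATA4, a transcription factor of Sertoli cells and of the heart, had 0 to 6 counts in the gonad libraries against 5296 to 9073 in heart and 691 to 2180 in liver. The Sertoli marker DMRT1 had 0 to 14 counts, the Leydig markers CYP17A1 and INSL3 had 0 to 13 and 0 to 8, and the germ cell markers DAZL and DDX4 had 0 to 4 and 0 to 15. Summed over their list, 7 Sertoli markers reached 6.29 to 13.3 CPM in gonads. The same sum was 221 to 389 CPM in heart and 56.5 to 87.2 CPM in liver. Most of it there was GATA4 alone, at 202 to 373 and 45.2 to 73.7 CPM. The 6 germ cell markers summed to 21.8 to 36.5 CPM in gonads, 8.02 to 14.6 in heart and 7.36 to 66.3 in liver. KIT alone was most of the gonad sum, at 16.5 to 32.9 CPM, and NANOS3 reached 61.3 CPM in liver. These sums therefore do not describe their lists as a whole. SOX9 and AMH, further Sertoli markers, had 14 to 364 and 55 to 112 counts in gonads, beside 23 to 241 and 59 to 151 in heart. Several defining testis markers were thus at or near 0 in these libraries, and "gonad library" below repeats the label without any statement on the tissue.

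Of the 7 genes, 2 had every gonad library above all heart and liver libraries, namely the slit diaphragm gene NPHS1 and the thick ascending limb gene SLC12A1. A separation of this kind was found in 6.4% of all genes tested. The podocyte genes PODXL and SYNPO had their highest levels in every heart library (2 of 7, against 5.22% of all genes), and the tubule genes CUBN, LRP2 and CDH16 in every liver library (3 of 7, against 9.72%). All 7 had counts in every gonad library.

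**Figure D1:**
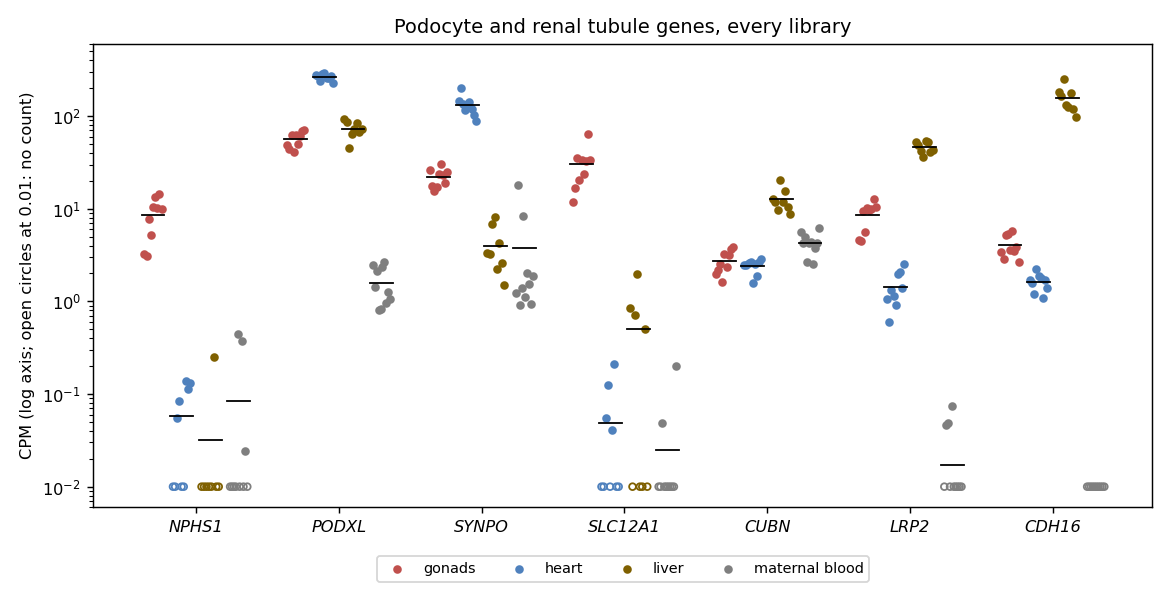
Level of each gene in every library, in CPM on a log axis, with 1 point per library, open circles at 0.01 for libraries without a count, and black lines at group means. NPHS1 and SLC12A1 sit at 3.06 to 14.3 and 11.8 to 63.4 CPM in gonads and near 0 in heart and liver, whereas PODXL and SYNPO are highest in heart and CUBN, LRP2 and CDH16 in liver. Maternal blood was prepared with another kit and normalized on its own.

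NPHS1 (Entrez 519706) encodes nephrin, the adhesion protein that spans the slit diaphragm between foot processes. Its levels in the gonad libraries of fetuses 1, 3, 4 and 5 were 3.24, 3.06, 7.80 and 5.19 CPM, and those of fetuses 6 to 10 were 10.5, 13.4, 10.2, 14.3 and 9.96 CPM. The mean was 8.62 ± 4.10 CPM (SD, n = 9), from 120 to 719 counts per library. In heart, 4 of 9 libraries had no count and the rest had 2 to 4, with a mean of 0.0583 ± 0.0605 CPM (SD, n = 9). In liver, 7 of 8 libraries had no count and fetus 8 had 6. The gonad range therefore lay far above both organs, while heart and liver overlapped.

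SLC12A1 (Entrez 407161) encodes the apical sodium-potassium-chloride cotransporter of the thick ascending limb, the target of loop diuretics. The gonad libraries of fetuses 1, 3, 4 and 5 had 11.8, 16.6, 35.6 and 20.5 CPM, and those of fetuses 6 to 10 had 33.8, 23.5, 32.8, 63.4 and 33.9 CPM. The mean was 30.2 ± 15.1 CPM (SD, n = 9), from 436 to 3195 counts, and the library of fetus 9 stood well above the others. In heart, 5 of 9 libraries had no count and the highest had 6, and in liver 4 of 8 had none and the highest, fetus 4, had 28. The mean in liver was 0.505 ± 0.691 CPM (SD, n = 8), so the gonad mean was 59.9 times the liver mean on this scale and 130 times on plain library totals.

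PODXL (Entrez 616366) encodes podocalyxin, a charged sialomucin of the foot process surface that is also made by endothelial cells. Its level was 40.9 to 70.2 CPM in gonads (median 60.5), 228 to 293 CPM in heart (median 268) and 44.9 to 92.2 CPM in liver (median 73.3). Every heart library was above every library of the other organs, and gonads and liver overlapped. The heart mean of 263 ± 21.0 CPM (SD, n = 9) was 4.65 times the gonad mean of 56.6 ± 10.8 CPM (SD, n = 9). On plain library totals these means were 203 CPM in heart and 91.3 CPM in gonads. The liver mean was 73.1 ± 14.9 CPM (SD, n = 8), 1.29 times the gonad mean, but on plain library totals the order turned, with 91.3 CPM in gonads and 58.3 CPM in liver. The 6 endothelial markers of the list used here summed to 167 to 240 CPM in gonads, 257 to 458 CPM in heart and 63.4 to 81.6 CPM in liver, each marker with 10 or more counts in every library. Their part in the PODXL levels was not tested.

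SYNPO (Entrez 533531) encodes synaptopodin, an actin-associated protein of foot processes and of dendritic spines. Levels ran from 15.4 to 30.5 CPM in gonads (median 23.0), from 89.2 to 201 CPM in heart (median 128) and from 1.5 to 8.04 CPM in liver (median 3.26). The 3 organs did not overlap, in the order heart, gonads, liver. The heart mean of 131 ± 32.2 CPM (SD, n = 9) was 5.95 times the gonad mean of 22.0 ± 4.98 CPM (SD, n = 9). That gonad mean was 5.48 times the liver mean of 4.01 ± 2.31 CPM (SD, n = 8). On plain totals the SYNPO means were 98.8 CPM in heart, 35.4 CPM in gonads and 3.05 CPM in liver. Smooth muscle markers summed to 3015 to 5944 CPM in heart, 103 to 167 CPM in gonads and 64.9 to 179 CPM in liver. All 5 were above 10 counts in every library. DES alone was most of the heart and gonad sums, at 2116 to 4810 and 70.1 to 128 CPM. In heart, ACTA2, TAGLN and CNN1 had 182 to 352, 281 to 441 and 281 to 600 CPM, and MYH11 had 2.54 to 5.60 CPM. Cardiomyocyte markers summed to 23252 to 35596 CPM in heart, 6.01 to 11.4 CPM in gonads and 7.32 to 112 CPM in liver. The part of these markers in the SYNPO levels was not tested either.

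CUBN (Entrez 523202) and LRP2 (Entrez 100337021) encode cubilin and megalin, the paired receptors by which the proximal tubule takes up filtered protein. CUBN was low in gonads, at 1.60 to 3.84 CPM (median 2.56) and 73 to 227 counts, and overlapped with heart, at 1.57 to 2.88 CPM (median 2.55). In liver it had 8.76 to 20.4 CPM (median 11.7), above every other organ library. The means were 2.73 ± 0.781 CPM in gonads (SD, n = 9), 2.41 ± 0.414 CPM in heart (SD, n = 9) and 12.6 ± 3.76 CPM in liver (SD, n = 8). On plain totals the gonad mean of CUBN was 2.32 times the heart mean, against 1.13 times here.

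LRP2 separated all 3 organs, in the order liver, gonads, heart. It had 36 to 54.3 CPM in liver (median 45.8), 4.50 to 12.6 CPM in gonads (median 9.68) and 0.601 to 2.52 CPM in heart (median 1.31). The liver mean of 46.1 ± 6.61 CPM (SD, n = 8) was 5.39 times the gonad mean of 8.56 ± 2.90 CPM (SD, n = 9). The gonad mean was 5.92 times the heart mean of 1.45 ± 0.623 CPM (SD, n = 9).

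CDH16 (Entrez 508777) encodes a cadherin of tubule epithelium that is named for its presence in kidney. It too ran in the order liver, gonads, heart without overlap. Liver had 97.4 to 253 CPM (median 149), gonads 2.68 to 5.76 CPM (median 3.61) and heart 1.08 to 2.24 CPM (median 1.68). The liver mean of 157 ± 49.3 CPM (SD, n = 8) was 38.9 times the gonad mean of 4.02 ± 1.13 CPM (SD, n = 9). On plain totals these means were 122 and 6.48 CPM. Thus 3 of the 4 tubule genes were not led by the gonad libraries. The 6 hepatocyte markers summed to 30061 to 56259 CPM in liver against 5.95 to 13.8 CPM in gonads and 27.7 to 54.1 CPM in heart, and their part in the levels of CUBN, LRP2 and CDH16 was not tested.

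The comparison of heart with liver was not used to choose the genes and was tested for all 7 with edgeR's quasi-likelihood test, with p-values adjusted over the 25095 genes that had a count in the organ libraries. It asked which of the nephron genes also differ between organs that hold no nephrons. Of the 7 genes, 6 differed, against 58.6% of all genes tested, so this share is not far from the background. PODXL and SYNPO were higher in heart (27.9% of all genes were), by 1.85 (standard error, SE, 0.129, edgeR adjusted p = 5.55e-13) and 5.04 (SE 0.277, edgeR adjusted p = 2.97e-15) on the log2 scale.

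**Figure D2:**
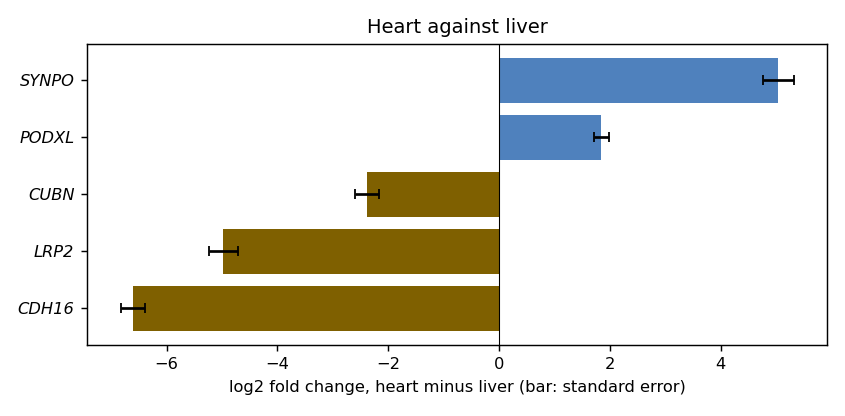
Log2 fold change of heart minus liver for the 5 genes with counts in every heart and liver library, as bars from 0 with standard errors (9 heart and 8 liver libraries). SYNPO and PODXL lie above 0, at 5.04 and 1.85, and CUBN, LRP2 and CDH16 below 0, at −2.39, −4.97 and −6.60.

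The tubule genes were all higher in liver than in heart (30.7% of all genes were). The difference of heart minus liver was −2.39 for CUBN (SE 0.216, edgeR adjusted p = 1.49e-10), −4.97 for LRP2 (SE 0.263, edgeR adjusted p = 1.28e-15) and −6.60 for CDH16 (SE 0.222, edgeR adjusted p = 8.46e-20). For SLC12A1 it was −3.02 (SE 0.882, edgeR adjusted p = 0.0046), but this rested on 12 counts over all heart and 66 over all liver libraries. NPHS1 was the gene that did not differ, with 14 counts over all heart and 6 over all liver libraries (edgeR adjusted p = 0.468). Without fetus 8, which held all liver counts of NPHS1, its adjusted p was 0.010, and no fold is given because the remaining livers had no count.

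To see which other nephron genes accompanied the 7, 6 lists with 89 further genes were read in the same libraries, of which 88 had a count in some organ. A gene was called higher in gonads when it exceeded heart and liver, each at an adjusted p under 0.05, and lower when it fell below both. In all, 28 of the 88 were higher and 8 were lower, and 52 were neither. Over all genes tested, 14.9% were higher and 13.6% lower. The lists were chosen with earlier results of these data known, and the contrast is the one by which the 7 were chosen. Their shares and adjusted p-values are therefore a description and not independent support. On plain library totals the split was 42 higher and 3 lower for the lists, and 9097 higher and 932 lower for all genes, against 3741 and 3421 here.

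**Figure D3:**
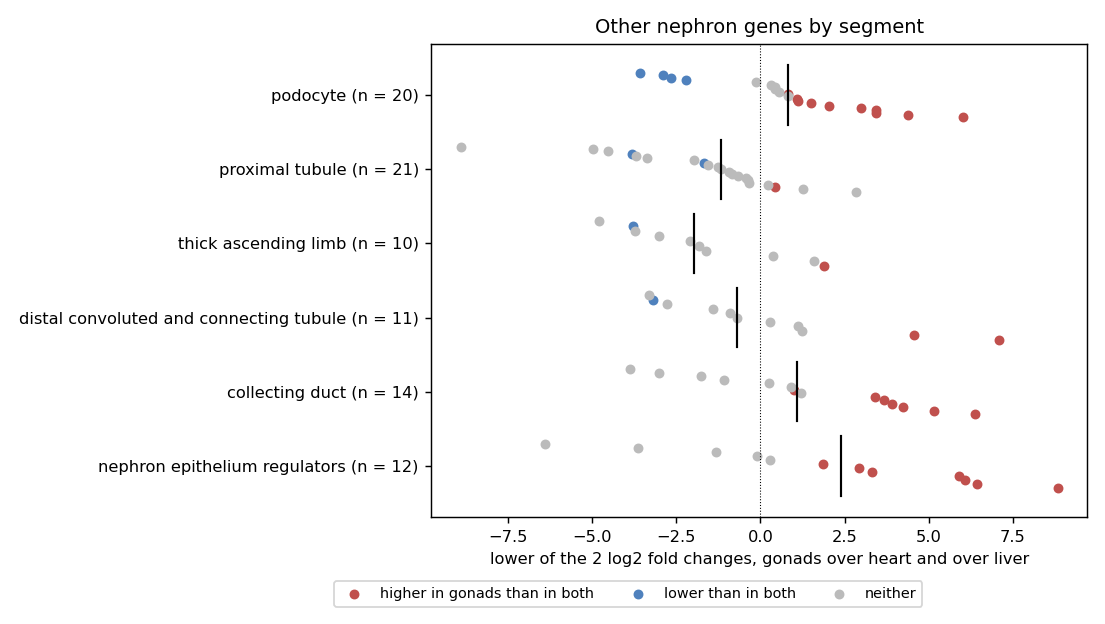
The lower of the 2 log2 fold changes, gonads over heart and gonads over liver, for each of the 88 listed nephron genes (points), in rows by list, with black lines at list medians. Red points passed the test as higher and blue points as lower than in both organs. Medians are above 0 for podocyte (0.83), collecting duct (1.10) and regulator genes (2.40) and below 0 for the other 3 rows. The median over all genes tested, not drawn, was −0.66.

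Among the 20 further podocyte genes, 10 were higher in gonads, 4 lower and 6 neither, with a median of 0.83 for the lower of the 2 log2 fold changes, beside −0.66 over all genes. WT1, a transcription factor of podocytes and of the gonadal ridge, had 130 ± 25.0 CPM in gonads (SD, n = 9), 6.14 ± 2.58 CPM in heart (SD, n = 9) and 2.18 ± 2.48 CPM in liver (SD, n = 8). Over heart it was higher by 4.39 on the log2 scale (SE 0.469, edgeR adjusted p = 7.01e-09). LMX1B, a transcription factor that acts on slit diaphragm and basement membrane genes, exceeded liver by 3.45 on the log2 scale (SE 0.432, edgeR adjusted p = 6.77e-08).

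Others of the podocyte genes that were higher were PTPRO, FOXC2, CD2AP, TRPC6, COL4A4, THSD7A and CRB2. Those that were lower were ACTN4, CLIC5, PLCE1 and PLA2R1. CLIC5, an intracellular chloride channel protein, had 2.81 ± 0.898 CPM in gonads (SD, n = 9), 19.1 ± 5.10 CPM in heart (SD, n = 9) and 34.0 ± 11.8 CPM in liver (SD, n = 8). PLCE1, a phospholipase, had 6.89 ± 1.16, 43.6 ± 10.5 and 30.6 ± 12.2 CPM in the same order. On plain totals ACTN4, CLIC5 and PLCE1 were still lower and PLA2R1 was not.

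Of 21 proximal tubule genes, only DAB2 was higher in gonads, while SLC5A2 and SLC13A3 were lower and 18 were neither, with a median of −1.18. DAB2, an adaptor for endocytosis by megalin, had 39.4 ± 5.47 CPM in gonads (SD, n = 9) against 29.4 ± 5.90 CPM in heart (SD, n = 9), or 0.42 more on the log2 scale (SE 0.141, edgeR adjusted p = 0.0148). SLC5A2, a glucose cotransporter, had 19.1 CPM in gonads, 36 CPM in heart and 61.7 CPM in liver, and SLC13A3, a dicarboxylate transporter, had 5.03, 8.42 and 71.2 CPM. Neither of the last pair was lower on plain totals, where the change nearest to 0 was 0.26 and 0.33. The organic ion transporters SLC22A6 and SLC22A2, the lowest genes of the list in gonads, had 0 to 4 and 0 to 8 counts there.

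In the list of the thick ascending limb, the segment of SLC12A1, 1 of 10 genes tested was higher, 1 lower and 8 neither, with a median of −1.97. CLDN16, a claudin of the paracellular path for magnesium and calcium, was higher at 0 to 49 counts in gonads and a mean of 0.549 ± 0.291 CPM (SD, n = 9), against 0.145 ± 0.116 CPM in heart (SD, n = 9). Its edgeR adjusted p was 0.0325, and it was between 0.0535 and 0.0847 when fetus 1, 6, 9 or 10 was left out. PTGER3, a prostaglandin E receptor, was lower, at 3.86 CPM against 53.8 CPM in heart and 5.41 CPM in liver, but on plain totals its change nearest to 0 was positive, at 0.55. UMOD, which encodes uromodulin, the major protein that this segment secretes, had 4 counts in 1 gonad library and none elsewhere in the organs, and CASR, the calcium-sensing receptor, had none at all. SLC12A1, with 436 or more counts per gonad library, thus stood beside UMOD and CASR at or near 0, which were named as the lowest of the list. Others had counts in every gonad library, at 102 to 296 for PTGER3, 30 to 111 for CLDN19 and 15 to 54 for CLDN10. KCNJ1 had 13 to 44 and ESRRB 1 to 27, while BSND, EGF and IRX1, like CLDN16, had none in some gonad libraries.

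In the list of the distal convoluted and connecting tubule, 2 of 11 genes were higher, 1 lower and 8 neither, with a median of −0.71. Over all genes, 14.9% were higher and the median was −0.66, so this list was near the background. CALB1, the calcium-binding protein calbindin, had 774 to 2964 counts per gonad library and 36.1 ± 11.4 CPM (SD, n = 9), while its heart counts, 70 in all, lay in 1 library and its liver counts reached 10. TMEM52B had 36 to 197 counts per gonad library, none in heart and up to 12 in liver. WNK4, a kinase that regulates salt transport, was lower, at 8.71 CPM against 13.2 CPM in heart and 80.5 CPM in liver, and turned to 0.53 on plain totals. KLK1 (kallikrein) and PVALB (parvalbumin) were the lowest in gonads, at 0 to 33 and 0 to 60 counts.

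Of 14 collecting duct genes, 7 were higher, none was lower and 7 were neither, with a median of 1.10. The water channel AQP2 had 33 to 61 counts in every gonad library, at most 2 in a heart library and none in liver. RET, the receptor tyrosine kinase of the branching ureteric bud, had 35.0 ± 3.78 CPM in gonads (SD, n = 9), 6.37 above heart on the log2 scale (SE 0.873, edgeR adjusted p = 5.74e-07). TFCP2L1, a transcription factor of this segment, had 14.6 ± 2.67 CPM in gonads (SD, n = 9) and exceeded liver by 5.16. The others, with counts per gonad library, were AVPR2 (33 to 50), SCNN1G (0 to 32), GATA3 (1110 to 2248) and ATP6V0D2 (462 to 870). ATP6V0D2 exceeded liver by 0.99 on the log2 scale (SE 0.324). FOXI1 and SLC26A4, genes of intercalated cells, had 0 to 12 and 0 to 20 counts in gonads.

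Among 12 regulators and adhesion genes of nephron epithelium, 7 were higher (PAX2, PAX8, LHX1, EMX2, POU3F3, CDH6 and EPCAM) and none was lower, with a median of 2.40. PAX2, a transcription factor of the nephric lineage, had 114 ± 11.7 CPM in gonads (SD, n = 9), at most 2 counts in a heart library and at most 20 in a liver library. It exceeded liver by 8.84 on the log2 scale (SE 0.487, edgeR adjusted p = 2.97e-15). LHX1, which acts in early nephric duct and nephron formation, had 341 to 956 counts per gonad library, none in heart and up to 12 in liver, and POU3F3 had 731 to 1555 counts against at most 46. HNF4A, a transcription factor of proximal tubule and hepatocytes, was the lowest of the list in gonads, at 0.972 CPM, against 82.5 CPM in liver.

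Over the 9 gonad libraries the 7 genes varied to different degrees. The coefficient of variation was 50.0% for SLC12A1, 47.6% for NPHS1, 33.9% for LRP2, 28.6% for CUBN, 28.0% for CDH16, 22.7% for SYNPO and 19.1% for PODXL, beside a median of 21.0% over all genes. As a description over 9 libraries that share depth and normalization with each gene, Pearson's r was 0.96 between NPHS1 and LRP2, 0.95 between PODXL and CUBN and 0.91 between SLC12A1 and LRP2. With NPHS1, r was 0.83 for SLC12A1, 0.71 for CUBN and 0.71 for PODXL. SYNPO and CDH16 lay apart from this, with r of 0.30 and 0.26 to NPHS1, and −0.11 to each other.

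The next question was whether these differences between fetuses followed fetal weight, the study's main variable. With a spline of weight in edgeR, 0 of the 7 genes passed in gonads after adjustment, as did 0% of the 17809 genes tested there. At an unadjusted p under 0.05 there were 3 (12.6% of all genes), which were NPHS1 (p = 0.00915), SLC12A1 (p = 0.0277) and LRP2 (p = 0.0293) in edgeR, with adjusted p of 0.247, 0.334 and 0.337. Without fetus 8, NPHS1 alone of the 7 passed, with an edgeR adjusted p of 0.0113, in a fit where 8.49% of all genes passed.

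**Figure D4:**
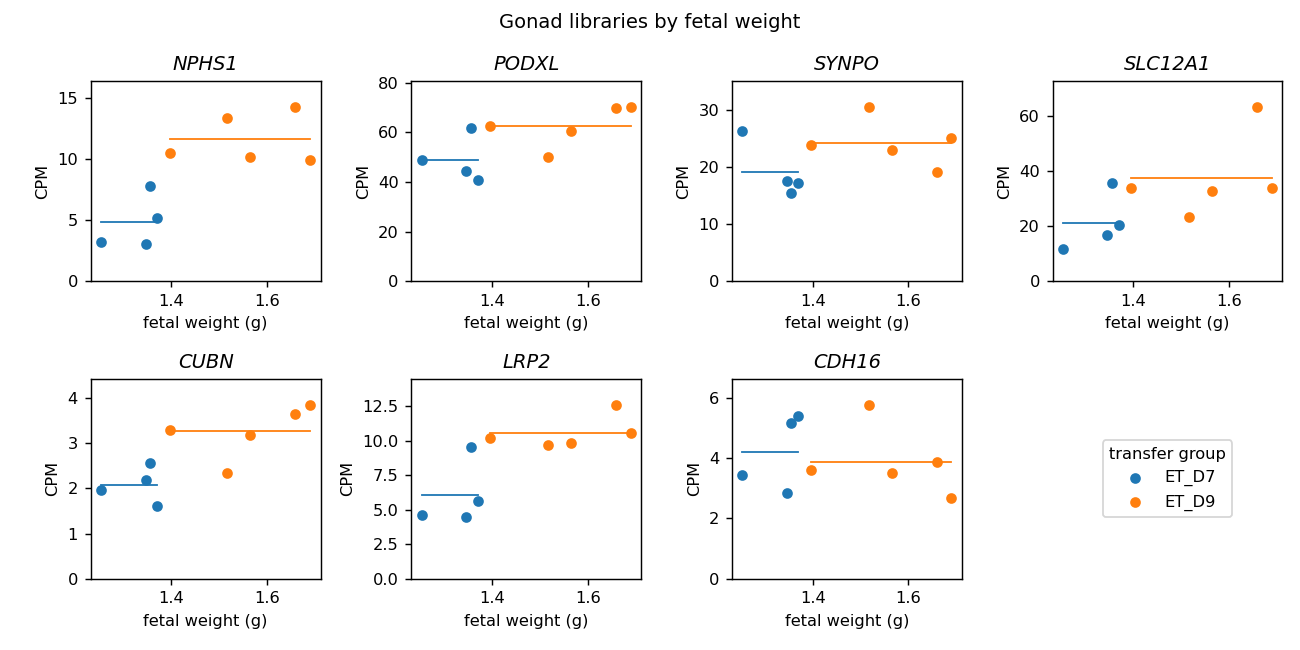
CPM of each gene in the 9 gonad libraries against fetal weight in g, with points coloured by transfer group (4 ET_D7, 5 ET_D9) and lines at group means. NPHS1 and LRP2 do not overlap between the groups, at up to 7.80 and 9.51 CPM in ET_D7 and from 9.96 and 9.68 CPM in ET_D9, whereas CDH16 shows no such step.

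A straight line in weight gave a positive slope for 6 of the 7. In gonads the estimated slope of the log2 level per 0.1 g was 0.41 for NPHS1 (SE 0.123), 0.34 for SLC12A1 (0.109), 0.27 for LRP2 (0.0833), 0.22 for CUBN (0.0648) and 0.13 for PODXL (0.0501). These 5 had an unadjusted p under 0.05, against 2.38% of all genes with a positive slope at that level, but each had an adjusted p of 0.849 in edgeR. The slopes of SYNPO (0.06, standard error 0.0728) and CDH16 (−0.05, standard error 0.0955) were smaller than their errors. With the transfer group in the same fit, the slope was 0.11 for NPHS1, 0.30 for SLC12A1, 0.12 for LRP2, 0.10 for CUBN and 0.07 for PODXL, and none passed.

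In heart and liver no member passed with the spline (0 of 5 tested in heart, where 0% of genes passed, and 0 of 6 in liver, where 1.81% did). With the spline, none had an unadjusted p under 0.05 either, against 7.99% of all genes in heart and 17.9% in liver. NPHS1 could not be tested in either organ, nor SLC12A1 in heart, because of their low counts. As a straight line, the slope of SYNPO in heart was −0.18 per 0.1 g (SE 0.0509, edgeR adjusted p = 0.0593), where 6.77% of all genes passed, and its adjusted p was 0.0315 without fetus 3, where 24.8% did. For LRP2 in heart it was 0.28 (SE 0.108, edgeR adjusted p = 0.124), on 10 to 76 counts per library. This was close in size to its slope in gonads, though that difference was not tested. With the transfer group in the same fit, the slope of LRP2 was 0.04 in heart and 0.12 in gonads. In liver, the straight line for CDH16 had a slope of −0.18 per 0.1 g (SE 0.0778). Its unadjusted p was 0.0443 and its adjusted p 0.273 in edgeR. An unadjusted p under 0.05 was reached there by 2848 of 16605 genes.

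Between transfer groups the same gonad libraries were compared as 4 of ET_D7 and 5 of ET_D9. NPHS1 had 4.82 ± 2.20 CPM in ET_D7 (SD, n = 4) and 11.7 ± 2.02 CPM in ET_D9 (SD, n = 5), a log2 difference of 1.29 (SE 0.279, edgeR adjusted p = 0.0715). LRP2 had 6.06 ± 2.36 and 10.5 ± 1.18 CPM, a difference of 0.82 (SE 0.220, edgeR adjusted p = 0.105). For both genes every ET_D9 library was above every ET_D7 library, which was so for 3.35% of all genes. CUBN followed with 2.08 ± 0.403 and 3.25 ± 0.576 CPM and a difference of 0.67 (SE 0.175, edgeR adjusted p = 0.103), with overlapping ranges.

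The differences were 0.84 for SLC12A1 (edgeR adjusted p = 0.242), 0.38 for PODXL (edgeR adjusted p = 0.203), 0.38 for SYNPO (edgeR adjusted p = 0.298) and −0.10 for CDH16 (edgeR adjusted p = 0.876). Thus 0 of the 7 passed in edgeR, where 0.354% of all genes did, and 5 had an unadjusted p under 0.05, as did 18.5% of all genes. DESeq2's Wald test called 3, NPHS1 (adjusted p = 0.000773), CUBN (adjusted p = 0.0243) and LRP2 (adjusted p = 0.0124), where it called 5.28% of all genes. Without fetus 4, the ET_D7 library with the highest NPHS1 and LRP2, edgeR called these 2, with adjusted p of 0.0401 and 0.0267, and 0.267% of all genes.

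Of the listed nephron genes, 1 passed between transfer groups in gonads, the proximal tubule phosphate transporter SLC34A1, which is named here after its values were seen. It was 1 of 16 proximal tubule genes tested, no gene of the other lists passed, and 0.354% of all genes did. SLC34A1 had 0, 4, 11 and 0 counts in the ET_D7 libraries of fetuses 1, 3, 4 and 5. In the ET_D9 libraries of fetuses 6 to 10 it had 65, 56, 85, 66 and 107 counts. SLC34A1 met the filter of 10 counts in 4 or more libraries only through the ET_D9 group. Its test result is therefore given as a description and not as support for a group difference. The 2 groups did not overlap, and the log2 difference was 4.30 (SE 0.730, edgeR adjusted p = 0.0495). This adjusted p lay just under the threshold and ran from 0.0267 to 0.197 when 1 fetus was left out, passing without fetus 1, 4 or 9 and not without fetus 3, 5, 6, 7, 8 or 10. It was 0.0525 without the filter on low counts, 0.0506 with DESeq2 size factors and 1.43e-08 in DESeq2's Wald test. The median difference over the 16 proximal tubule genes tested was 0.12, over the 20 podocyte genes 0.06 and over the 7 members 0.67.

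The genes whose levels over the 26 organ libraries were most like each member were ranked by Pearson's r of log2(CPM + 1), as a description in which organ differences set most of the value. For NPHS1 they were GPR50 (r = 0.99), PTPRQ (0.98) and LOC101909815 (0.97), and for SLC12A1 LHX1 (0.98), GPR50 (0.98) and HOXA10 (0.98), so that GPR50 stood in both lists. SYNPO ran with REM1, MCAM and DES (0.99, 0.98 and 0.98), of which MCAM is an adhesion molecule of vessels and DES encodes desmin, the intermediate filament of muscle. PODXL ran with MGST3, ARL6IP5 and LOC784007 (0.98 each). CDH16 was closest to FTCD, ASGR2 and ONECUT2 (0.99 each), of which ASGR2 is a subunit of the hepatocyte asialoglycoprotein receptor. LRP2 was closest to PDIA5 (0.98), SDR42E1 (0.97) and CCNE1 (0.97), and CUBN to Entrez 112445973, which had no symbol (0.98), PDE6C (0.97) and CL43 (0.97).

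In maternal blood, read on its own scale, CUBN had 68 to 245 counts, PODXL 22 to 94 and SYNPO 34 to 772 in all 10 libraries. NPHS1 and LRP2 had no count in 7 of 10 libraries, SLC12A1 in 8 and CDH16 in all 10.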

How the data were processed

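Stranded libraries of fetal organs and maternal blood were sequenced, with 1 library per organ and fetus. Per the labels and the study's methods, the authors checked reads with FastQC (0.11.9), trimmed them with Trimmomatic, mapped them with STAR (2.7.0b) to ARS-UCD1.3 and counted them per gene with featureCounts from Subread (2.0.3). The deposited values are whole-number counts per Entrez gene without stated normalization. Counting options for strand and multi-mapping reads are not given in the sources used here, so values of overlapping genes and of near-identical copies are uncertain. RefSeq symbols (assembly ARS-UCD2.0) were found for 31630 of 35092 identifiers. No gene, promoter or protein sequence was used here.

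Counts were fitted with edgeR 4.0.16 in R 4.3.3 (quasi-likelihood test, TMM, Benjamini-Hochberg adjustment over all genes tested, threshold 0.05). The organ fit held all 26 organ libraries and all genes counted in 1 or more of them. Fits of fetal weight (natural spline, 3 degrees of freedom) and transfer group were made within an organ, on genes that reached 10 counts in 4 or more libraries. The code was tested on simulated data. Alternatives were DESeq2 1.42.0, its size factors, other filters, plain library totals, a linear term and leaving out each fetus. From each nephron list the text names up to 3 genes called higher with the largest lower fold change, 2 called lower and the 2 lowest in gonads, and for each member the 3 genes with the highest r. Some listed genes enter the counts but are not reported here by name. The members and lists were chosen with earlier results of these data known.

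Organ libraries with the same number come from the same fetus by their labels. The correlation of their deviations from group means was −0.291 to 0.340 over 8 gonad and heart pairs, −0.0916 to 0.0676 over 7 gonad and liver pairs and −0.207 to 0.222 over 8 heart and liver pairs. Each fetus gave 1 library per organ, so p-values rest on the spread between fetuses.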

Additional observations from a re-analysis of the deposited data

Results flagged for a closer look

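Of 27 groups of libraries tested for a single distant value, 5 had one, where chance gives about 1 in 20. That rate cannot be relied on where many libraries had no count. This was so for NPHS1 in liver (7 of 8 libraries) and for SLC12A1 in liver (4 of 8) and maternal blood (8 of 10). In gonads, SLC12A1 of fetus 9 stood apart at 63.4 CPM (3195 counts), with the next library at 35.6 CPM. In liver, SLC12A1 of fetus 4 was at 1.975 CPM (28 counts) with the next at 0.853 CPM, and NPHS1 of fetus 8 was at 0.253 CPM (6 counts) with no count in the other livers. In maternal blood, SYNPO of the dam of fetus 2 was at 17.84 CPM (772 counts) with the next at 8.39 CPM, and SLC12A1 of the dam of fetus 10 was at 0.2027 CPM (8 counts).

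Maternal blood entered no comparison of the 7 genes, and 3 of them were above the floor of 3 counts in all 10 blood libraries. Mean levels there were 1.597 ± 0.723 CPM for PODXL, 3.729 ± 5.44 CPM for SYNPO and 4.287 ± 1.14 CPM for CUBN (SD, n = 10). No blood sample without a pregnancy was analysed here.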

How the results depend on the processing

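The number of listed nephron genes higher in gonads was 28, and 25 to 42 over the alternatives, within 1.5 times. The background moved more, from 3741 of all 25095 genes to 2073 with a log2 fold change above 1 (25 listed genes) and 9097 on plain totals (42 listed genes). The steadiness of the listed number is therefore not steadiness of its excess over all genes. The number lower, 8, moved to 4 with a log2 fold change above 1, to 3 on plain library totals and to 4 on plain totals without mitochondrially encoded genes, and ran from 5 (without fetus 4) to 11 (without fetus 10). Plain totals were added after seeing the data. They raised the median over all genes of the lower of the 2 changes from −0.66 to 0.35, and turned SLC5A2 to 0.2567, SLC13A3 to 0.3264, PTGER3 to 0.5533 and WNK4 to 0.5316. On plain totals without mitochondrially encoded genes PTGER3 was also turned, at 0.1684, while SLC5A2 (−0.40), SLC13A3 (−0.24) and WNK4 (−0.09) stayed negative. DESeq2 size factors moved the median heart minus liver difference of all genes to −0.13. With fetus as a replicate block, 28 listed genes were higher, 8 lower and 6 members differed between heart and liver, and no other call changed.

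Along weight in gonads, 0 to 1 members passed over the fits that leave out a fetus, with 1 without fetus 8, where 8.49% of all genes passed. The slope of SYNPO in gonads turned to −0.1446 with the transfer group as a term. That of CDH16 in gonads ran from −0.1148 to 0.03853, and that of CUBN in heart from −0.01855 to 0.0499. Between transfer groups, 0 to 2 members passed (2 without fetus 4), 3 passed in DESeq2, and the difference of CDH16 ran from −0.2584 to 0.06407. The cause of these changes was not tested. No paired analysis was possible within gonads because each fetus gave 1 gonad library. Counts of 0 to 6, as for NPHS1 outside the gonads, limit any fold there.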
